A study of Mus musculus with 6 samples.

Results

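Notch signalling passes between touching cells: a Jagged or Delta ligand on one cell engages a Notch receptor on its neighbour, an ADAM protease trims the receptor, and the gamma-secretase complex then frees its intracellular domain. That domain enters the nucleus, joins the DNA-binding protein Rbpj and a Mastermind coactivator, and switches on repressors of the Hes and Hey families. In neural tissue the pathway is known for holding progenitors undifferentiated, and in glioma it is often studied for the same property.

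The values below describe 30 genes of this pathway in GL261, a mouse glioma cell line. They were picked by name, as receptors, ligands, Fringe glycosyltransferases, gamma-secretase subunits, the nuclear complex, Hes and Hey repressors and the inhibitors Numb and Numbl, and all 30 were found among the 58220 genes in the files. GL261 cells received 1 uM sodium propionate, the salt of a short-chain fatty acid, or 1 uM sodium chloride as the matching salt control, and total RNA was taken 4 h later. There were 3 propionate libraries (replicates 1, 4 and 5) and 3 chloride libraries (replicates 1, 2 and 3), with no allele, transgene or second agent named in either group. Nothing in the labels ties the libraries of a salt to separate cultures. A p-value here therefore measures only how these libraries spread, and that spread may be technical.

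Depth, taken as coverage over FPKM, was 9.33 to 11.3 Gb of counted bases in propionate libraries and 9.15 to 9.47 Gb in chloride libraries. Propionate 1 and chloride 3 had coverage on 71192 and 71452 transcript models, against 81178 to 82370 in the other 4 libraries. For Notch1, Notch4, Dll1, Rfng, Psenen and Numbl the difference is given without this pair as well. TPM, a level per unit of transcript length that sums to 1000000 in each library, were summed per gene and scaled between libraries. Of 8 neural and glioma markers, Nes, Vim, Sox2, S100b and Cd44 averaged at least 54.05 TPM over the 6 libraries, while Olig2 averaged 1.51, Fabp7 1.39 and Gfap 0.933 TPM. In contrast, all 7 endothelial markers, among them Kdr and Cdh5, were under 0.1 TPM in the mean of 6 libraries. Of 6 mural markers, Acta2 averaged 94.5, Pdgfrb 1.29 and Des 1.20 TPM, and the other 3 were under 0.1 TPM. Of 4 neuronal markers, Tubb3 averaged 79.3 TPM and the other 3 were under 0.1 TPM. The 15504 genes whose mean reached 1 TPM were tested with limma on log2(TPM + 1). Differences are propionate minus chloride on that scale, which understates the change of low genes.

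None of the 23 pathway genes that reached the filter passed an adjusted p of 0.05 in either direction (limma, Benjamini-Hochberg over all genes tested; lowest adjusted p among members = 0.914). Across all tested genes 0.00645% passed as higher in propionate and 0.0% as lower, so this contrast holds almost no calls anywhere. In bulk RNA, fewer cells that express a gene and less RNA per cell cannot be told apart. At an unadjusted p under 0.05 there was 1 member, Psenen, which was higher. The background at that limit was 2.16% of tested genes higher and 2.97% lower. That split depends on the scaling: 335 genes were higher and 461 lower as reported, against 70 and 1097 with TPM as deposited. With TPM as deposited Psenen had an unadjusted p of 0.0936 and Rfng, which was lower, had 0.0456 (limma). With voom on estimated read numbers, 0 members passed and 2 had an unadjusted p under 0.05. In that voom fit 827 of 15504 genes were under this limit, 272 higher and 555 lower. By sign alone 12 members were higher in propionate and 11 lower, with a median difference of 0.0034, against a median of 0.0054 over all tested genes. The 95% confidence interval lay within a 1.5-fold change of TPM + 1 either way for 21 of the 23, all but Dll1 and Dlk2. For all 23 it lay within a 2-fold change of TPM + 1. For genes near 1 TPM, such as Dll1 and Hey1, these limits allow a wider fold change in TPM itself.

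**Figure D1:**
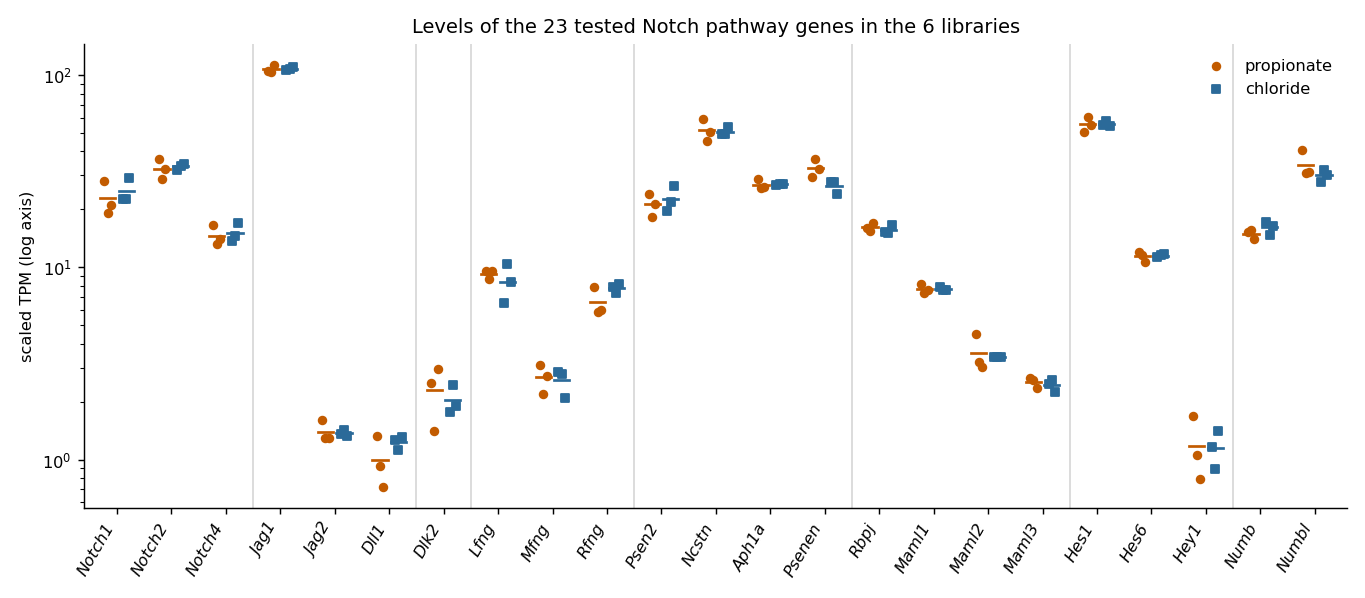
Scaled TPM (log axis) of the 23 tested pathway genes, grouped by role, with propionate libraries as circles to the left of chloride libraries as squares; each point is a library and each short line the mean of 3. The salts overlap for every gene but Psenen, and levels span from about 1 TPM for Dll1 to 107 TPM for Jag1.

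**Figure D2:**
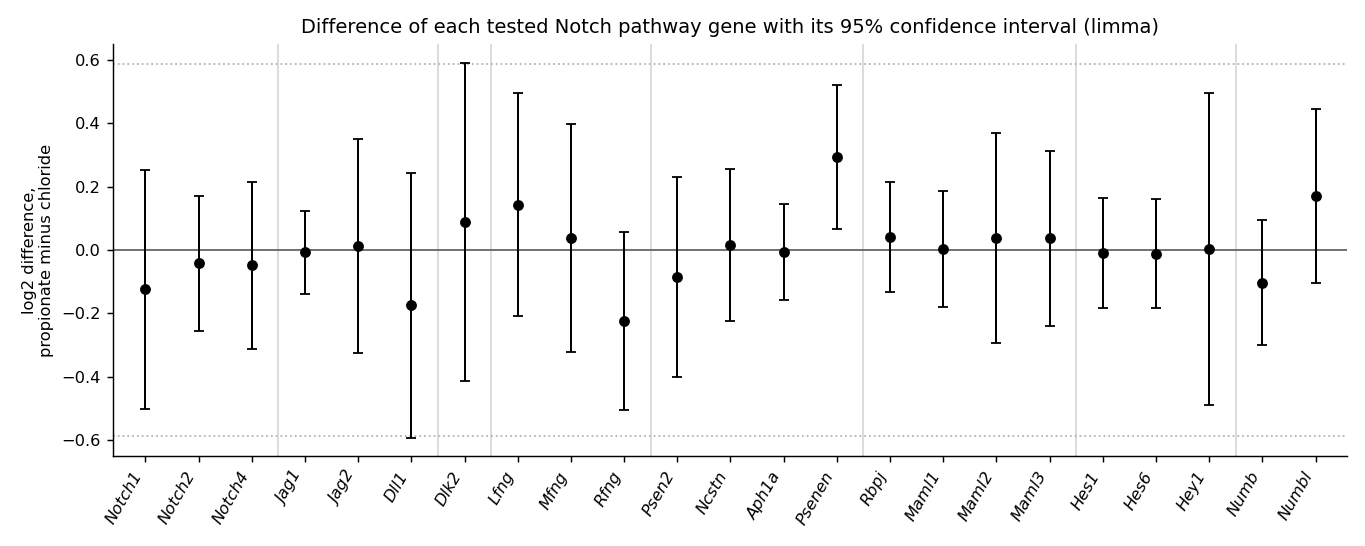
Log2 difference (propionate minus chloride) of each tested gene with its 95% confidence interval from limma. Dotted lines mark a 1.5-fold change of TPM + 1, which is a wider change in TPM for low genes. The interval of Psenen is the only one that does not include 0 before adjustment for multiple tests.

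Of the receptors, 3 were expressed at similar orders of magnitude and Notch3 was close to 0. Notch2 made the largest share of receptor TPM, 44.9 to 47.9% in propionate libraries and 42.6 to 47.5% in chloride libraries. Notch1, the receptor most studied in neural progenitors, contributed 31.2 to 34.8% in propionate libraries and 31.97 to 36.2% in chloride libraries. Notch4, best known from endothelial cells, still contributed 20.4 to 21.6% in propionate libraries and 20.1 to 21.1% in chloride libraries, in RNA with endothelial markers near 0.

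Notch1 had 28.2, 19.1 and 21.2 TPM in propionate 1, 4 and 5, against 22.5, 22.8 and 29.2 TPM in chloride 1, 2 and 3. Its highest values were therefore in propionate 1 and chloride 3, the less covered pair, and the groups overlapped. The difference was -0.12 ± 0.16 (SE, n = 3 each; limma adjusted p = 0.938), and it was -0.16 ± 0.07 in the other 4 libraries (limma adjusted p = 0.825). Leaving out single libraries moved it by over 1.5 times: it was -0.28 without propionate 1, -0.19 without chloride 1, -0.08 without propionate 5, -0.0105 without propionate 4 and -0.0063 without chloride 3.

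Notch2 had 36.4, 28.8 and 32.5 TPM in propionate libraries, against 32.1, 33.8 and 34.3 TPM in chloride libraries. Both the highest and the lowest value belonged to propionate, and the difference was -0.04 ± 0.09 (SE; limma adjusted p = 0.962). Notch4 averaged 14.6 ± 1.7 TPM in propionate libraries and 15.1 ± 1.7 TPM in chloride libraries (SD, n = 3 each), again with its top values in the less covered pair. Its difference was -0.05 ± 0.11 in all 6 libraries and -0.05 ± 0.08 without that pair (SE). Notch3, a receptor known from mural cells among others, did not exceed 0.0445 TPM in propionate libraries or 0.0746 TPM in chloride libraries and was not tested.

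Because truncated Notch4 transcripts that lack the ligand-binding part are known from mouse mammary tumours, coverage was followed along the receptor transcripts. All 30 exons of the leading Notch4 model were covered in every library, with a lowest exon coverage of 18.8 to 28.4 reads per base in propionate libraries and 20.8 to 26.1 in chloride libraries. Leaving out the first and last exon, mean coverage of the 3′ exons over that of an equal number of 5′ exons was 1.44, 1.08 and 1.30 in propionate libraries, against 1.22, 1.25 and 0.970 in chloride libraries. Those ratios overlap between the salts, and the 5′ exons, which encode the extracellular part, were read in all 6 libraries. Such coverage does not measure what share of Notch4 RNA is truncated, and that share was not tested. The same ratio for Notch1 was 0.529 to 0.641 in propionate libraries and 0.582 to 0.673 in chloride libraries. For Notch1 the 5′ exons were thus read more deeply than the 3′ exons in every library of either salt.

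**Figure D3:**
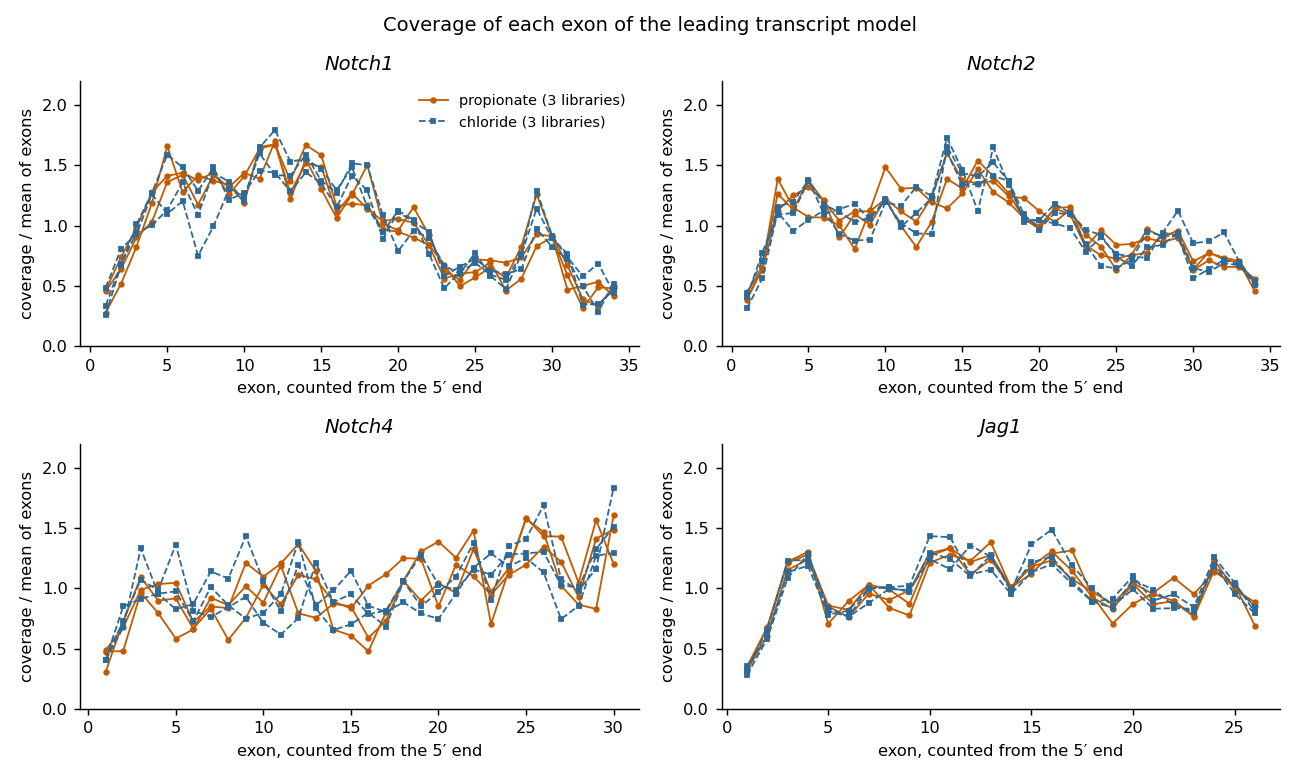
Coverage of each exon of the leading model of Notch1, Notch2, Notch4 and Jag1, divided by the mean over exons of that library, against exon number from the 5′ end; solid lines are propionate libraries and dashed lines chloride libraries. Lines of both salts run together, and no exon of Notch4 falls to 0.

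Ligand RNA was nearly all Jag1. Jag1, a Jagged ligand that binds Notch receptors on neighbouring cells, had 105.0, 104.1 and 112.4 TPM in propionate libraries, against 105.8, 106.8 and 110.4 TPM in chloride libraries. The groups overlapped, and this was 96.6 to 97.5% of ligand TPM in propionate libraries and 97.1 to 97.2% in chloride libraries. Jag1 stood above 91.9% of tested genes and had the narrowest interval of the 23 tested members, from -0.14 to 0.12 around a difference of -0.0075.

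The other Jagged ligand, Jag2, averaged 1.40 ± 0.19 TPM in propionate libraries and 1.38 ± 0.05 TPM in chloride libraries (SD, n = 3 each). Dll1, the Delta ligand of the early neural tube, had 1.33, 0.926 and 0.718 TPM in propionate libraries, against 1.26, 1.12 and 1.31 TPM in chloride libraries. Propionate 4 and 5 were under all chloride libraries while propionate 1 was above them, and the difference was -0.17 ± 0.18 (SE; limma adjusted p = 0.932). Without propionate 1 and chloride 3 the Dll1 difference was -0.27 ± 0.17 (SE, limma adjusted p = 0.825). Dll4, a ligand of sprouting vessels, did not exceed 0.0408 TPM in propionate libraries or 0.185 TPM in chloride libraries.

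Dll3 was under the filter and was not part of the test. This divergent Delta protein, which acts inside the cell and does not activate receptors in trans, had 0.711, 0.794 and 0.855 TPM in propionate libraries, against 0.529, 0.451 and 0.523 TPM in chloride libraries. All 3 propionate values lay above all chloride values, which also held for 5.26% of the tested genes. With no filter on low values the difference was 0.25 ± 0.08 (SE; limma unadjusted p = 0.0196, adjusted p = 0.887), and it did not pass. In that fit 1425 of 31176 genes had an unadjusted p under 0.05, and 575 of these were higher in propionate (limma). Dlk2, a Delta-like protein without the domain that canonical ligands use to bind Notch, averaged 2.29 ± 0.80 TPM in propionate libraries and 2.04 ± 0.37 TPM in chloride libraries (SD, n = 3 each).

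The Fringe enzymes add sugars to Notch and thereby tune which ligand a receptor answers. Lfng averaged 9.27 ± 0.51 TPM in propionate libraries and 8.42 ± 1.91 TPM in chloride libraries, and Mfng 2.68 ± 0.46 and 2.58 ± 0.42 TPM (SD, n = 3 each, propionate then chloride). Neither differed by more than the spread between libraries.

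Rfng had 7.87, 5.88 and 5.998 TPM in propionate libraries, against 7.91, 7.33 and 8.16 TPM in chloride libraries. Propionate 4 and 5 were under every chloride library, while propionate 1 lay within the chloride range. The difference was -0.22 ± 0.12 (SE; limma adjusted p = 0.914). Without propionate 1 it was -0.34 (limma adjusted p = 0.673), and without propionate 1 and chloride 3 it was -0.31 (limma adjusted p = 0.825). Rfng thus moved by over 1.5 times with 1 library, and what part that library has in the result was not tested.

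Gamma-secretase is built from a presenilin, nicastrin, Aph1 and Pen-2. Psenen, which encodes Pen-2, the smallest subunit and the one that completes the active complex, had 29.5, 36.5 and 32.5 TPM in propionate libraries, against 27.6, 27.8 and 24.1 TPM in chloride libraries. It was the only tested member whose groups did not overlap. Over all tested genes, propionate lay entirely above chloride for 5.26% and entirely below for 6.48%. The difference was 0.29 ± 0.10 (SE, n = 3 each; limma unadjusted p = 0.0183, adjusted p = 0.914), and the interval ran from 0.07 to 0.52. It was 0.22 without propionate 4 and 0.23 without chloride 3, where the unadjusted p was 0.0575 and 0.0616 (limma). Without propionate 1 and chloride 3 the Psenen difference was 0.30 ± 0.08 (SE, limma unadjusted p = 0.0094, adjusted p = 0.825).

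Psenen lies on the minus strand of mouse chromosome 7, and the most extended of its models overlaps U2af1l4, a splicing factor gene on the plus strand, over 327 bases of their spans. Gm49396, also on the opposite strand, overlaps the span of Psenen over 284 bases and averaged 4.10 TPM. U2af1l4 had 11.7, 20.1 and 9.53 TPM in propionate libraries, against 8.54, 8.70 and 6.42 TPM in chloride libraries. It leaned the same way as Psenen (difference 0.68 ± 0.25, SE; limma adjusted p = 0.914), and both had their highest value in propionate 4. The library kit marks strand, but no source used here says how strand was set in the alignment, and no test separated reads of the opposite strands. Among the Psenen models, a single one reaches U2af1l4 in its span. It was listed at 0.0, 0.0 and 1.49 TPM in propionate libraries, against 0.0, 0.180 and 0.0 TPM in chloride libraries. The leading Psenen model, with 76.3 to 92.9% of the gene in propionate libraries and 77.1 to 91.9% in chloride libraries, ends before U2af1l4 begins. The stretch that RefSeq gives as one of the 2 Psenen promoters, chr7:30563155-30563454 on the minus strand of GRCm38.p6, is printed here because it faces U2af1l4. Capitals mark its single match to TGGGAA, the core letters bound by Rbpj. The other Psenen promoter window, chr7:30563578-30563877, holds 0 matches, and the core occurs in 25.6% of all promoter windows.

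Psenen promoter: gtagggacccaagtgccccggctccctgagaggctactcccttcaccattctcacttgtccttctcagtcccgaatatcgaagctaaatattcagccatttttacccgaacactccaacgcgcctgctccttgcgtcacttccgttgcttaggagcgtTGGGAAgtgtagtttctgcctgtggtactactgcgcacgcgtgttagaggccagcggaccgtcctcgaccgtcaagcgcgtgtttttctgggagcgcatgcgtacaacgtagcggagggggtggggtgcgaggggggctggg

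The other subunits were level. Ncstn, the substrate-recognising subunit nicastrin, had 59.1, 45.1 and 50.2 TPM in propionate libraries, against 49.1, 49.4 and 53.3 TPM in chloride libraries, so that propionate held both extremes. Aph1a, a scaffold subunit, averaged 26.9 ± 1.6 TPM in propionate libraries and 27.0 ± 0.3 TPM in chloride libraries (SD, n = 3 each). Psen2, a presenilin and thus a catalytic subunit, averaged 21.2 ± 2.8 TPM in propionate libraries and 22.6 ± 3.5 TPM in chloride libraries, with a difference of -0.08 ± 0.13 (SE; limma adjusted p = 0.943).

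In the nuclear complex, Rbpj made just over 50% of the summed TPM and the 3 Mastermind coactivators the rest. Rbpj had 16.04, 15.4 and 16.97 TPM in propionate libraries, against 15.3, 14.99 and 16.7 TPM in chloride libraries. The groups overlapped and the difference was 0.04 ± 0.07 (SE; limma adjusted p = 0.950). Maml1 averaged 7.71 ± 0.42 TPM in propionate libraries and 7.69 ± 0.15 TPM in chloride libraries, Maml2 3.58 ± 0.79 and 3.42 ± 0.02 TPM, and Maml3 2.53 ± 0.16 and 2.44 ± 0.18 TPM (SD, n = 3 each, propionate then chloride). Maml2 owed its wider propionate spread to propionate 1, at 4.48 TPM.

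Among the Hes and Hey repressors, the pathway's usual transcriptional readout, Hes1 was the one expressed at a high level. Hes1 had 50.6, 60.1 and 55.1 TPM in propionate libraries, against 54.8, 57.4 and 54.5 TPM in chloride libraries. Propionate held both the lowest and the highest value, and the difference was -0.01 ± 0.07 (SE, n = 3 each; limma adjusted p = 0.991), with an interval from -0.18 to 0.16. Hes1 is also driven by other signals and represses its own promoter.

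Hes6, a relative that counteracts Hes1, averaged 11.4 ± 0.7 TPM in propionate libraries and 11.5 ± 0.2 TPM in chloride libraries. Hey1, a second textbook target, was near the filter at 1.18 ± 0.46 TPM in propionate libraries and 1.16 ± 0.26 TPM in chloride libraries (SD, n = 3 each). Hes5, Hes7, Hey2 and Heyl were at or near 0: none exceeded 0.147 TPM in a propionate library or 0.112 TPM in a chloride library, and none was tested. Nrarp, a feedback inhibitor that Notch itself induces, averaged 2.56 ± 0.36 TPM in propionate libraries and 2.22 ± 0.56 TPM in chloride libraries (limma adjusted p = 0.934).

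Hes5 is listed at 0 in 5 of the 6 libraries although it is a textbook Rbpj target in neural progenitors. The RefSeq window of 250 bases before to 50 after its start, chr4:154960673-154960972 on the plus strand of GRCm38.p6, holds the core TGGGAA once on each strand, shown in capitals (TTCCCA is the same core read from the other strand). Over both strands the core occurs in 25.6% of all 32851 promoter windows in the table and in 11 of the 35 windows of the 26 members that have one. The longer letters GTGGGAA, which contain the core, occur in 6.38% of all windows and in 6 of those 35. Mfng, Hes1, Hey1 and Heyl have no window in this set, so the tally does not cover Hes1 or Hey1. A match describes letters only.

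Hes5 promoter: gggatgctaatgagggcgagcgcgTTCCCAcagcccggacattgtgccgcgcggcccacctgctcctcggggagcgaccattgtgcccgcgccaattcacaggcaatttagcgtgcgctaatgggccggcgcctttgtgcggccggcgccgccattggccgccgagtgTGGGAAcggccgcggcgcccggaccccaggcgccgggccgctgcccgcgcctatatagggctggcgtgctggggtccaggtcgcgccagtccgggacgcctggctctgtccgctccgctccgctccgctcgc

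Numbl, the Numb-like endocytic adaptor, had 40.5, 30.8 and 31.1 TPM in propionate libraries, against 27.8, 32.1 and 30.1 TPM in chloride libraries. Propionate 1 stood above the other 5 libraries, which overlapped, and the difference was 0.17 ± 0.12 (SE; limma adjusted p = 0.914). Without propionate 1 and chloride 3 it was 0.05 ± 0.08. Numb, the adaptor that removes Notch from the cell surface and is handed to only one daughter in asymmetric divisions, averaged 14.9 ± 0.8 TPM in propionate libraries and 16.1 ± 1.3 TPM in chloride libraries (SD, n = 3 each). Its difference was -0.10 ± 0.08 (SE; limma adjusted p = 0.925).

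Numb was the member with the clearest difference between transcript models. The files divide it into 16 models, and models that StringTie assembled from reads carried 73.6 to 76.2% of its TPM in propionate libraries and 73.3 to 79.5% in chloride libraries. The leading model, assembled and 4309 nt long, had 5.56, 5.78 and 6.32 TPM in propionate libraries, against 9.94, 7.54 and 9.99 TPM in chloride libraries. All propionate values lay under all chloride values, and the difference was -0.55 ± 0.16 (SE, n = 3 each; limma unadjusted p = 0.0142, adjusted p = 0.862). It was the only one of 41 tested models of pathway genes with an unadjusted p under 0.05. Over all 35755 tested models, 2.59% were lower and 1.99% higher at that limit, and 0.0364% passed after adjustment. The other Numb models together had 9.66, 9.80 and 7.69 TPM in propionate libraries, against 7.30, 7.14 and 6.47 TPM in chloride libraries.

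The models differ in 2 optional coding exons that define the known Numb isoforms: a short one within the phosphotyrosine-binding domain and a long one within the proline-rich region. Both are on the minus strand of mouse chromosome 12 (mm10), and both have a length divisible by 3. The short exon, chr12:83825259-83825291, is given with 24 bases of each neighbouring exon, and the long exon, chr12:83797197-83797343, alone, with the optional bases in capitals. They are shown because, by model TPM, the salts do not overlap for the share with the short exon and overlap for the share with the long exon.

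Numb short optional exon: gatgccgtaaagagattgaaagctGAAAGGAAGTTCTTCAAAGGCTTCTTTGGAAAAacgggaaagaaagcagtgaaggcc
Numb long optional exon: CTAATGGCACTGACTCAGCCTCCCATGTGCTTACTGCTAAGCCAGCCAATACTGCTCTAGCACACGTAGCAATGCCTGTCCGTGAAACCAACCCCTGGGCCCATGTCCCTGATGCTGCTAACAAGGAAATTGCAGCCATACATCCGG

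By model TPM, transcripts with the short exon made 41.9, 44.0 and 36.1% of Numb in propionate libraries, against 30.5, 31.4 and 26.7% in chloride libraries. The groups did not overlap, with means of 40.7 ± 4.1% and 29.5 ± 2.5% (SD, n = 3 each, propionate then chloride). The two-sided exact permutation p was 0.1, the smallest that 3 against 3 allows. Groups that do not overlap always give this value, so it adds nothing to that observation. The leading model skips the short exon, so its lower TPM raises this share, and these differences are not separate results. The TPM of models with the short exon was 6.36, 6.85 and 4.99 in propionate libraries, against 5.14, 4.55 and 4.25 in chloride libraries. Those values overlapped. Transcripts with the long exon are a form known from proliferating neural precursors. By model TPM they made at most 2.23% in propionate libraries and 2.16% in chloride libraries. Coverage of the long exon was higher, at 12.05, 43.5 and 20.9% of its 2 upstream neighbours in propionate libraries. In chloride libraries it was 22.7, 25.3 and 0.0%, and the groups overlapped. Models and coverage thus differed for the long exon too, and which is nearer its true share was not tested.

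The coverage of the short exon itself did not follow the models either. Coverage of the short exon, summed over all models, was 44.3, 61.9 and 60.3% of the mean of its neighbouring exons in propionate libraries, against 58.7, 37.3 and 67.6% in chloride libraries. The groups overlapped fully, with means of 55.5 ± 9.8% and 54.5 ± 15.6% (SD, n = 3 each, propionate then chloride; two-sided exact permutation p = 0.9). The deposited models and the exon coverage thus gave different answers for the same exon in the same libraries.

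The leading model lacks the short optional exon, as some other Numb models do, and it alone holds an extra last exon of 825 bases. All 825 bases lie inside the last exon of Papln on the opposite strand as the files give it. Papln, a gene of the extracellular matrix, averaged 8.16 ± 0.67 TPM in propionate libraries and 8.20 ± 0.39 TPM in chloride libraries (SD, n = 3 each). Coverage assigned to the extra exon was 24.8, 34.3 and 32.6% of the exons beside the short optional exon in propionate libraries, against 39.3, 34.4 and 26.8% in chloride libraries. These values overlap, although the TPM of the model that holds the exon did not. Whether reads of Papln enter this exon was not tested.

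**Figure D4:**
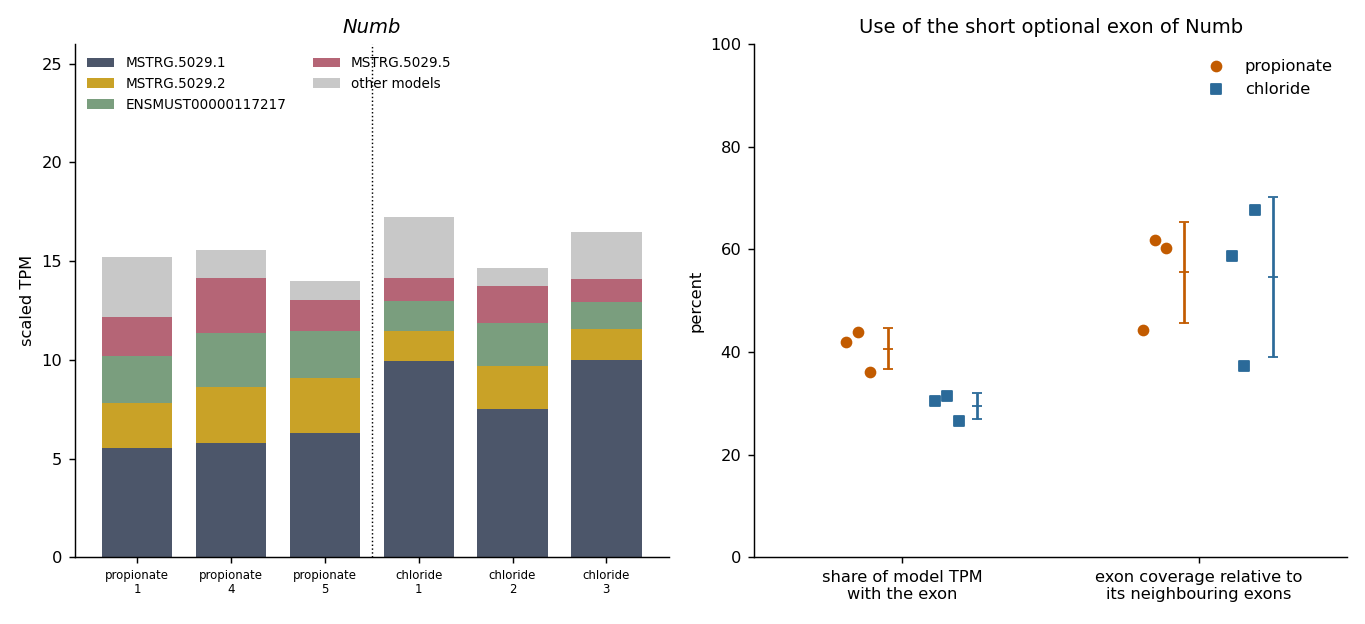
Left, scaled TPM of the 4 leading Numb models and of the other models, stacked per library; right, use of the short optional exon in percent, per library with mean and SD, as the share of model TPM and as exon coverage relative to its neighbours. The leading model (dark, bottom) is lower in the 3 propionate libraries, and the salts separate for the share of model TPM but not for exon coverage.

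Other members had model shares that differed between libraries of the same salt while the gene total held. The Psen2 model with the largest share carried 86.1, 93.2 and 92.8% of the gene in propionate libraries, against 94.2, 89.1 and 0.0% in chloride libraries. In chloride 3 the gene was instead listed under another pair of models, at 59.7% and 26.01%, with a total of 26.4 TPM.

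For Rbpj the leading model carried 94.7, 49.1 and 49.4% in propionate libraries, against 19.6, 27.8 and 91.1% in chloride libraries. Its highest shares were in propionate 1 and chloride 3, the less covered pair. The leading Maml3 model carried 95.9, 93.1 and 98.7% in propionate libraries, against 92.4, 1.75 and 82.2% in chloride libraries, and chloride 2 listed an assembled model at 91.6% in its place. When assembled models were left out, the Maml3 difference came to 0.55, against 0.04 with them. For Psen2 and Maml3 a single chloride library stood apart. For Rbpj the split also differed among the other 4 libraries, where a second model held 42.9% in propionate 5, 51.0% in chloride 1 and 65.3% in chloride 2, and another held 42.1% in propionate 4 and 25.2% in chloride 1.

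**Figure D5:**
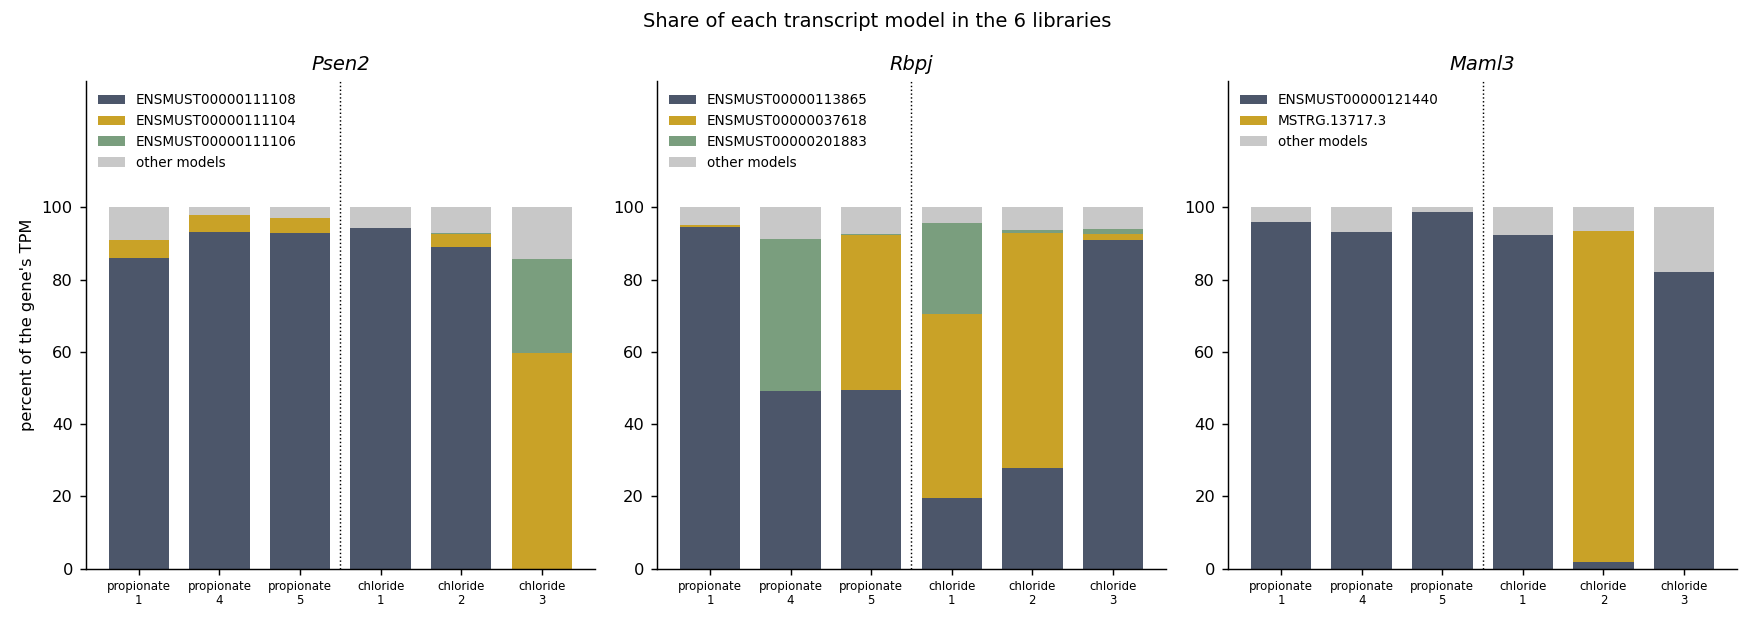
Percent of the TPM of Psen2, Rbpj and Maml3 in each of their leading transcript models, stacked per library, propionate left of the dotted line and chloride right. Chloride 3 for Psen2 and chloride 2 for Maml3 stand apart from the other libraries, and Rbpj splits differently in nearly every library.

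The library with the highest value was unevenly spread over the pathway. Propionate 1 was the highest library for 12 of the 23 tested members, or 52.2%, against 25.4% of all tested genes. The 7 members just outside the filter ranged up to the mean of Dll3 at 0.644 TPM, and the members just inside it were Dll1 at 1.11 TPM, Hey1 at 1.17 TPM and Jag2 at 1.39 TPM, all as means of 6 libraries.

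Of 59 further pathway genes on a separate list, 48 were tested and none passed (limma, adjusted p under 0.05; 0 at an unadjusted p under 0.05). By sign 22 were higher in propionate and 26 lower, with a median of -0.0108. Adam10, the protease that makes the first cut in a ligand-bound receptor, averaged 92.8 ± 5.3 TPM in propionate libraries and 98.0 ± 2.4 TPM in chloride libraries. Adam17, a related protease, averaged 47.2 ± 2.7 and 47.2 ± 1.5 TPM (SD, n = 3 each, propionate then chloride). Mib1, the ubiquitin ligase that lets ligands pull on receptors, had 56.8, 56.5 and 66.2 TPM in propionate libraries, against 82.5, 63.0 and 65.6 TPM in chloride libraries. The groups overlapped, and the difference was -0.22 ± 0.12 (SE; limma adjusted p = 0.914).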

How the data were processed

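Total RNA of GL261 cells was made into libraries with a kit that marks strand, as the labels' protocols state. Build mm10 and the tools HISAT2, StringTie, fastp and bcl2fastq appear, without settings, in the submitters' processing notes. Per the file headers, StringTie 2.1.1 estimated coverage, FPKM and TPM for 157296 fixed transcript models in each library; the deposited files hold these other values as text attributes and no counts, so precision comes from the spread between libraries. A listed 0 can be a failed estimate.

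TPM were summed per gene, with assembled models joined to the reference gene sharing most exonic bases, and scaled by median ratios. Genes whose mean reached 1 TPM and that had a transcript of at least 200 nt were fitted with limma 3.58.1 in R 4.3.3 (log2 with a pseudocount of 1, variance trend, Benjamini-Hochberg at 0.05), tested on simulated data first. Exon positions were matched to GENCODE M21 and promoters to RefSeq. Members and lists were chosen with earlier results of these data known. Every member is accounted for; other pathway genes were named if past the threshold or at an unadjusted p under 0.05, with Adam10, Adam17, Mib1 and Nrarp always named. The transcript models named were those with the largest share of a member or an unadjusted p under 0.05. Alternatives covered the pseudocount, filter, scaling, FPKM, weights, voom, library coverage, model choice and each library left out.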

Additional observations from a re-analysis of the deposited data

How the results depend on the processing

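No member passed in either direction, as a gene or as a transcript model, under any alternative run, and the lowest adjusted p of a member was 0.227 (library weights). The number of all genes called, 1 as reported, was 0 with no filter or with voom, 2 with a mean of at least 5 TPM, library weights or sums over the locus, 6 in the 4 better-covered libraries, and 1 to 4 without each library. Members at an unadjusted p under 0.05 numbered 2 with no filter, voom, the 4 libraries or a term for library coverage, 4 with library weights, and 0 to 2 without each library. Over all 15504 tested genes that number was 796 as reported, 827 with voom, 915 in the 4 libraries and 1341 with the coverage term. It was 2196 with library weights, 481 to 1049 without each library, and 1425 of 31176 genes with no filter. The library weights ran from 0.275 for propionate 1 to 7.005 for propionate 5. The member median ranged from -0.0826 (TPM as deposited) to 0.0314. Notch1, Dll1, Rfng, Psenen and Numbl kept their sign throughout; the other 18 changed it at least once, and the cause was not tested. The log2 differences that changed sign were Hey1 -0.0097 with a pseudocount of 0.1; Ncstn -0.011 with quantile normalization; Maml1 -0.002 with FPKM. With TPM as deposited they were Hey1 -0.05, Jag2 -0.044, Maml1 -0.083, Maml2 -0.037, Maml3 -0.032, Mfng -0.032, Ncstn -0.079 and Rbpj -0.05. With library weights they were Hey1 -0.18, Jag1 0.057, Jag2 -0.047, Maml1 -0.024, Maml2 -0.11, Maml3 -0.043 and Mfng -0.0062. In the 4 better-covered libraries they were Dlk2 -0.0008, Hes1 0.037, Hey1 -0.071, Jag1 0.025, Jag2 -0.063, Maml1 -0.044, Maml2 -0.10, Maml3 -0.030, Mfng -0.15 and Ncstn -0.049. With reference transcripts alone they were Hey1 -0.0017, Lfng -0.015, Notch2 0.0044 and Numb 0.015. Without each library in turn the range was -0.0085 to 0.29 for Lfng, -0.086 to 0.11 for Ncstn, -0.071 to 0.051 for Hes1, -0.16 to 0.14 for Hey1, -0.035 to 0.031 for Maml1, -0.042 to 0.013 for Jag1, -0.0043 to 0.076 for Maml3, -0.062 to 0.13 for Mfng, -0.13 to 0.035 for Notch4, -0.18 to 0.029 for Psen2, -0.051 to 0.045 for Jag2, -0.10 to 0.12 for Maml2, -0.053 to 0.023 for Aph1a, -0.12 to 0.040 for Notch2, -0.061 to 0.30 for Dlk2 and -0.043 to 0.034 for Hes6. Among members that kept their sign when single libraries were left out it was -0.28 to -0.0063 for Notch1, -0.29 to -0.073 for Dll1, -0.34 to -0.16 for Rfng, 0.22 to 0.37 for Psenen, 0.044 to 0.24 for Numbl, -0.16 to -0.056 for Numb and 0.0064 to 0.086 for Rbpj. The difference in the share of Numb with the short optional exon was 9.49 to 13.4 percentage points without each library. It was 0.961 points by exon coverage. That comparison and the model fit in the 4 libraries were chosen after seeing the data. No paired analysis was possible because the salts share only replicate number 1.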
